A study of Homo sapiens with 12 samples.

Results

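The interaction of BRG1 and IFNγ asks whether restoring BRG1 changes how strongly a gene answers IFNγ. For each gene it is the IFNγ response of Ad-BRG1 cells minus the IFNγ response of Ad-GFP cells, each response being the log2 level with IFNγ minus that without. It was computed for the 10333 genes of 18665 whose probe was above background on all 3 arrays of at least 1 group, with all 12 of the 12 arrays. SW-13, an established adrenal carcinoma line that makes no BRG1 protein, was transduced with an adenovirus expressing GFP (Ad-GFP) or a GFP-BRG1 fusion (Ad-BRG1) and either left untreated or given IFNγ for 6 h. Each of the 4 groups had 3 biological replicates with 1 array each, so every group lacks endogenous BRG1 protein and carries an adenovirus, and the control for BRG1 is GFP. The BRG1 virus had been titrated to the BRG1 level of HeLa cells, and all arrays come from 1 cell line.

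BRG1, encoded by SMARCA4, is an ATPase of the SWI/SNF complexes, which slide and evict nucleosomes. IFNγ binds a receptor that activates the JAK kinases, and STAT dimers then enter the nucleus and bind GAS elements, while IRF proteins bind the related ISRE elements. The genes that follow, the interferon-stimulated genes (ISGs), include transcription factors made early, such as IRF1, and effectors that restrict pathogens, process antigen and recruit leukocytes.

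Probe intensity ran from a mean of 540 to 571 on the IFNγ-treated Ad-BRG1 arrays and from 571 to 666 on the other 9 before normalization, and 15741 to 16828 probes an array were above background. The 1 SMARCA4 probe read 8.81, 8.57 and 8.73 (log2) in untreated Ad-GFP cells and 8.43, 8.49 and 8.61 in untreated Ad-BRG1 cells, and 8.71, 8.61 and 8.62 against 8.39, 8.75 and 8.72 with IFNγ. Whether this probe lies in the part of the mRNA that the virus carries is not given in the sources used here, so it does not check the virus labels. Of 11 adrenal steroid markers, 2 were above background on all 12 arrays and 7 on 0 arrays, STAR, CYP17A1 and NR5A1 among the 7. Of 11 leukocyte markers, 0 were above background on all 12 arrays and 6 on 0 arrays. These counts were 3 and 2 for 10 fibroblast markers, and 3 and 6 for 11 endothelial and epithelial markers.

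A positive interaction was called (limma, Benjamini-Hochberg adjusted p under 0.05) for 446 genes, 4.32% of those tested, and a negative one for 396, 3.83%. Of the called genes 53% were positive, against 63.9% with average normalization and 17.4% with centring on the median, which moved the median interaction to -0.17 (70% relative to that shift). An interaction of at least 1 in size, a 2-fold difference between the responses, was called positive for 136 genes and negative for 12, while the median over all genes was -0.03. The IFNγ response itself was called for 4.07% of genes in Ad-GFP cells and for 32.7% in Ad-BRG1 cells. In untreated cells, 26.7% of genes were called higher and 30.3% lower with Ad-BRG1 than with Ad-GFP.

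An ISG was here a gene called and at least 2-fold higher with IFNγ in cells with either virus, which 197 genes met. Equal log2 responses make an interaction of 0, so that the effects of BRG1 and IFNγ add on the log2 scale and multiply on the linear one. Synergy was an interaction called above 0, and 135 ISGs (68.5%) showed it. With 1 array left out in turn, the synergy class held from 115 to 194 ISGs. Dampening was an interaction called below 0 and held for 13 (6.6%). Addition required that the interaction was not called and that its 95% interval lay within 1.5-fold of 0 in either direction (0.58 on the log2 scale), which 24 ISGs (12.2%) met, and the other 25 (12.7%) were unresolved. Because the same arrays choose the ISGs and give the interaction, these counts are descriptions and not tests. The interaction ran from 0.40 to 5.70 in the synergy class, with a median of 1.30, from -0.32 to 0.32 in the addition class and from -1.80 to -0.47 in the dampening class. In the unresolved class it ran from -0.49 to 1.66 and was above 0 for 23 of the 25.

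**Figure D1:**
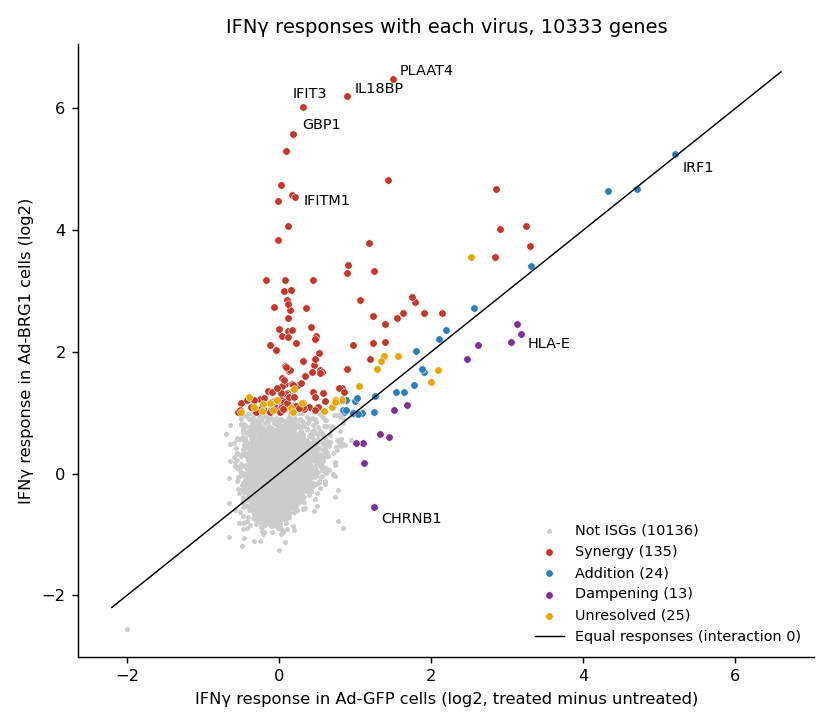
Each point is 1 of 10333 genes, placed by its IFNγ response (log2, treated minus untreated) in Ad-GFP cells on the x axis and in Ad-BRG1 cells on the y axis, coloured by class. Most synergy ISGs stand above the line of equal responses near 0 on the x axis, IRF1 lies on the line at 5.21 and 5.24, and CHRNB1 lies lowest among the ISGs at -0.55 in Ad-BRG1 cells.

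Promoter sequence is shown for 6 ISGs, 2 of each class, to set the elements through which IFNγ is known to act beside the classes. Bases 250 to 1 before the RefSeq start are printed 5′ to 3′ (build GRCh38.p14), with GAS matches (TTCNNNGAA) and matches of an ISRE core (GAAA, 2 unspecified bases and GAAA, on either strand, where matches may overlap) in capitals. The 6 were chosen after the matches were known. In the synergy class, GBP1 (chr1:89065209-89065458, minus strand) held an ISRE core and IFIT3 (chr10:89327747-89327996, plus strand) held 2.
GBP1: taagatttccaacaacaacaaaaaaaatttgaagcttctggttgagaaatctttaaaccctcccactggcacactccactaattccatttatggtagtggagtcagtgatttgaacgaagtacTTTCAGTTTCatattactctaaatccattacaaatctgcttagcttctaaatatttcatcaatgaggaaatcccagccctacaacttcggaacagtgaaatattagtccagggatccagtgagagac
IFIT3: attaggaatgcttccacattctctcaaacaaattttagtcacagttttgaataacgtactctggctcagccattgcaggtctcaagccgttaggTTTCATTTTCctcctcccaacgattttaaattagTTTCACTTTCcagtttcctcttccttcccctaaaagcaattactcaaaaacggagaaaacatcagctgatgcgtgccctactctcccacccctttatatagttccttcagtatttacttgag
In the addition class, IRF1 (chr5:132490774-132491023, minus strand) held a GAS element and IFITM3 (chr11:320861-321110, minus strand) held 2 ISRE cores.
IRF1: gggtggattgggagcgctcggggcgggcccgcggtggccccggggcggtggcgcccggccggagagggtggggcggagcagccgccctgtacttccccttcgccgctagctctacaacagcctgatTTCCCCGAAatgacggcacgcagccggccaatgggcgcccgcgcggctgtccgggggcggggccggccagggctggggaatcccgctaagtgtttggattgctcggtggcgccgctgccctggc
IFITM3: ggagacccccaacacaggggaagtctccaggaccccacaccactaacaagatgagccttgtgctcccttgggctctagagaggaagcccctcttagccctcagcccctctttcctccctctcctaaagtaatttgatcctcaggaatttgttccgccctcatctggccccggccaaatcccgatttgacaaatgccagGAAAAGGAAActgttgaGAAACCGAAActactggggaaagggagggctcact
In the dampening class, BCL6 (chr3:187745469-187745718, minus strand) held a GAS element and PSME2 (chr14:24146611-24146860, minus strand) held an ISRE core.
BCL6: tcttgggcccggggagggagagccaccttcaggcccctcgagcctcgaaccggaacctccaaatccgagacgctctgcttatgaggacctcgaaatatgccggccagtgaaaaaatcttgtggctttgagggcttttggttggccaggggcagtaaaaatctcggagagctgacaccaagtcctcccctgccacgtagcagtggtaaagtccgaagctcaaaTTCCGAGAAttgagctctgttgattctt
PSME2: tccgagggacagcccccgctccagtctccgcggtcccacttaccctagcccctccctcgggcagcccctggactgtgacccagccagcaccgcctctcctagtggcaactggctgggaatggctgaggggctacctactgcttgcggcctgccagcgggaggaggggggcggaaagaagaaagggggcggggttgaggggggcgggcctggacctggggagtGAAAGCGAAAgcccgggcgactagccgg

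Promoter entries of 300 bases (250 before to 50 after the start) were matched for 98 of the 135 synergy ISGs, 19 of the 24 addition ISGs and 12 of the 13 dampening ISGs. An ISRE core lay in 28 (28.6%) of the synergy promoters, 7 (36.8%) of the addition promoters and 6 (50%) of the dampening promoters, against 3.65% of all 27305 promoters and 2.82% of the 8506 matched among the genes tested. GAS matches lay in 15 (15.3%), 5 (26.3%) and 1 (8.33%), against 7.88% of all promoters. These are matches of letters in a short window and do not show that a factor binds there.

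Of the 12 ISGs with the largest synergy, 7 were above background only when both BRG1 and IFNγ were present. IFIT3, an antiviral protein that binds other IFIT proteins, read 4.76, 4.84 and 4.87 in untreated Ad-GFP cells, 5.16, 5.19 and 5.08 with IFNγ alone, 5.25, 5.32 and 5.16 with BRG1 alone, and 11.11, 11.33 and 11.35 with both. It was above background only on the last 3 arrays, which did not overlap with the other 9. Its interaction was 5.70 ± 0.11 (SE, limma, adjusted p = 9.1e-12). With groups below background raised to the lowest detected signal of each array it was 5.84, and IFNγ raised the level at least 58.8-fold in Ad-BRG1 cells.

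Guanylate-binding proteins are GTPases that attack vacuoles holding pathogens. GBP1 showed the same form, with values of 4.87 to 5.17 over the 9 arrays of the other groups and 10.59, 10.48 and 10.75 with both, an interaction of 5.39 ± 0.13 (limma, adjusted p = 2.8e-11). GBP4 and GBP5 were likewise above background only with both, with interactions of 4.41 ± 0.15 and 3.85 ± 0.12. GBP2 differed in that BRG1 alone brought it above background on all 3 arrays, at 5.99, 5.64 and 5.66 against 4.95, 4.88 and 4.98 with Ad-GFP. IFNγ then took GBP2 to 9.79, 9.74 and 9.95, and the interaction was 3.95 ± 0.14. GBP3, the last of the 5 tested of 7 listed, had an interaction of 0.38 that was not called. The median over those 5 was 3.95 against -0.03 over all genes, and 3 of the 5 passed the filter on background only through IFNγ-treated Ad-BRG1 cells, where they had to be high.

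Other genes above background only with both had separate roles. UBD, a ubiquitin-like tag for proteasomal degradation, read 10.47, 10.48 and 10.47 with both and at most 5.19 elsewhere, an interaction of 5.21 ± 0.11. APOL3, an apolipoprotein L that permeabilises bacterial membranes, read 9.69, 9.60 and 9.61 with both and at most 5.01 elsewhere, an interaction of 4.72 ± 0.10. IDO1, which degrades tryptophan, read 9.18, 9.14 and 9.41 with both and at most 5.09 elsewhere, an interaction of 4.49 ± 0.14. In all, 25 of the 135 synergy ISGs were detected on 0 of the 9 arrays of the other groups, and 33, these 25 among them, passed the filter only through IFNγ-treated Ad-BRG1 cells.

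**Figure D2:**
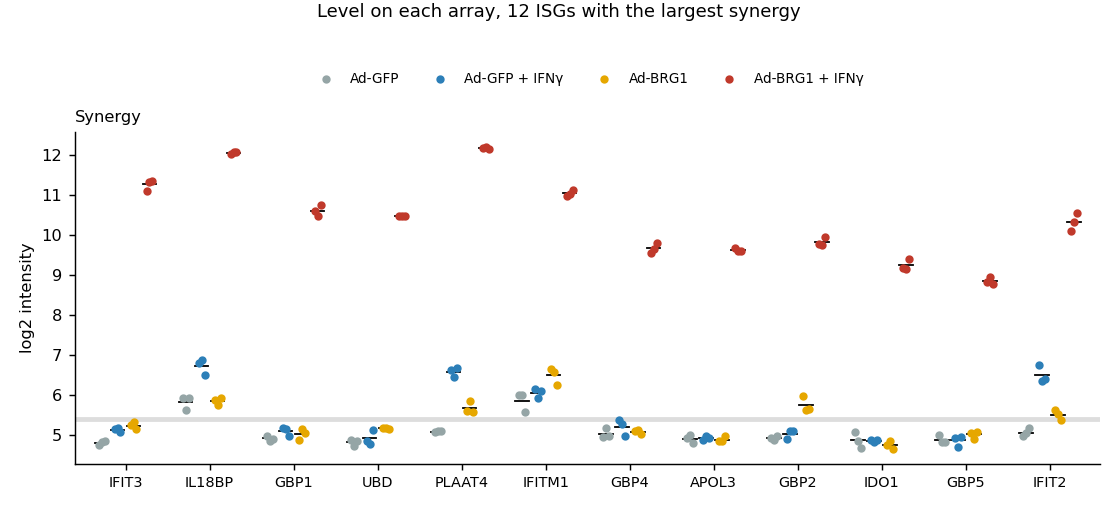
Normalised log2 intensity (y axis) of the 12 ISGs with the largest synergy (x axis), 3 points a group for the 3 arrays, with group means as black bars; the grey band is the range over arrays of the lowest detected signal, 5.35 to 5.44. For each gene the IFNγ-treated Ad-BRG1 points lie above all 9 others, while IL18BP, PLAAT4 and IFIT2 also rose with IFNγ in Ad-GFP cells.

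A further 60 synergy ISGs were detected on at least 1 of those 9 arrays but had no called response in Ad-GFP cells. They include genes with a wide spread between replicates. With both BRG1 and IFNγ, CEP135 ran from 8.07 to 9.36 and CD2AP from 6.67 to 7.34. IFITM1, a membrane protein that blocks viral entry, was detected on all 12 arrays. It read 6.00, 6.00 and 5.58 untreated and 6.15, 5.94 and 6.11 with IFNγ in Ad-GFP cells, groups that overlapped, and 6.65, 6.59 and 6.27 rising to 10.96, 11.02 and 11.13 in Ad-BRG1 cells. The interaction was 4.33 ± 0.18 (limma, adjusted p = 6.8e-09), and the IFNγ response 23.2-fold in Ad-BRG1 cells against 1.15-fold in Ad-GFP cells.

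In the remaining 50 synergy ISGs, IFNγ raised the level in both kinds of cells and more so with BRG1. IL18BP, a secreted inhibitor of interleukin 18, rose from 5.94, 5.65 and 5.94 to 6.81, 6.88 and 6.52 in Ad-GFP cells and from 5.87, 5.76 and 5.93 to 12.04, 12.06 and 12.07 in Ad-BRG1 cells. Its basal level did not differ beyond the spread (0.02, limma, adjusted p = 0.91), so the 1.86-fold response became 73.5-fold from the same start. Its second, dimmer probe gave an interaction of 0.88 (limma, adjusted p = 0.00047). PLAAT4, a phospholipase of the retinoid-inducible family, rose to 6.63, 6.45 and 6.68 in Ad-GFP cells and to 12.16, 12.19 and 12.16 in Ad-BRG1 cells, an interaction of 4.99 ± 0.12. IFIT2, an RNA-binding antiviral protein, rose to 6.75, 6.35 and 6.41 and to 10.11, 10.33 and 10.56, an interaction of 3.39 ± 0.18. Both were below background in untreated Ad-GFP cells, so their Ad-GFP responses are at least 2.32-fold and 2.18-fold.

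The basal effect of BRG1 varied among the synergy ISGs. Of the 135, 54 (40%) were called higher with BRG1 in untreated cells, 22 (16.3%) lower and 59 neither, against 26.7% higher and 30.3% lower over all genes; the interaction is computed from the same untreated arrays, so this is a description. The 3 IFNγ-treated Ad-BRG1 arrays lay above all 9 others for 122 of the 135, against 915 of all genes (8.86%). The class is chosen on these same arrays by a rise with IFNγ and a positive interaction, which favours that order. This share is therefore a description too. Of the ISGs detected on all 12 arrays, where no value is at background, 62 of 112 were in the synergy class, 19 in the addition class and 13 in the dampening class.

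The addition class held the transcription factors IRF1, IRF2, IRF9 and STAT3. IRF1, which switches on many later ISGs, read 7.90, 7.92 and 8.04 untreated and 13.21, 13.19 and 13.09 with IFNγ in Ad-GFP cells, and 8.42, 8.62 and 8.52 untreated and 13.67, 13.85 and 13.77 with IFNγ in Ad-BRG1 cells. The responses were 37.0-fold and 37.9-fold, and the interaction was 0.03 with a 95% interval from -0.19 to 0.26. BRG1 shifted both levels up by a like amount, 0.57 untreated and 0.60 with IFNγ, and no 2 groups overlapped. IRF9, which joins STAT proteins in the ISGF3 complex, had responses of 3.31 and 3.41 and an interaction of 0.10 (interval -0.15 to 0.35). Without background correction IRF9 was called positive, at 0.28 with average and 0.32 with quantile normalization. IRF2, a competitor of IRF1, had an interaction of 0.03, with detection on 1 and 2 of the 3 untreated arrays with Ad-GFP and Ad-BRG1. STAT3, a STAT activated mainly by cytokines of the interleukin 6 family, had an interaction of -0.32 that was not called. It was called in 4 alternatives, at -0.35 with array weights, -0.51 with centring on the median, -0.35 with the mean of probes and -0.32 in the robust fit with trend, and 1 of its other 2 probes gave -0.43 (limma, adjusted p = 0.0417).

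Some addition ISGs carried a large BRG1 effect of their own. IFITM3, which restricts viruses that enter through endosomes, read 5.16, 5.15 and 5.36 in untreated Ad-GFP cells, 7.12 ± 0.16 (SD, n = 3) with IFNγ, 10.11, 9.94 and 9.74 with BRG1, and 11.71, 11.56 and 11.54 with both. The 4 groups did not overlap. IFITM3 was detected on 0 of the 3 untreated Ad-GFP arrays, so that IFNγ raised it at least 3.36-fold with Ad-GFP, against 3.19-fold with Ad-BRG1, and BRG1 alone at least 23.5-fold. The fitted interaction of -0.23 (interval -0.56 to 0.10), -0.08 with that group raised to the lowest detected signal, rests in part on the background level, and so does the class. In the same settings without background correction, the interaction of IFITM3 was called positive, at 0.77 and 0.73. IFITM3 and its neighbour IFITM2 are near-identical in sequence, and a probe may read both. UBE2L6, the conjugating enzyme for the ubiquitin-like ISG15, rose from 7.28, 7.33 and 7.44 to 11.70, 11.77 and 11.56 in Ad-GFP cells and from 8.09, 8.15 and 8.13 to 12.66, 12.77 and 12.88 in Ad-BRG1 cells. Its interaction of 0.32 was not called (limma, adjusted p = 0.083), but a second, dimmer probe gave 0.88 (adjusted p = 0.0061), and without background correction the interaction was called at 0.51 with average and 0.57 with quantile normalization. MVP, the major vault protein, and MOB3C, a MOB family adaptor, were raised by BRG1 by 1.66 and 1.24 and had interactions of -0.10 and -0.31. For SHFL, an inhibitor of ribosomal frameshifting, the basal level was not called different, and IFNγ responses of 2.57 and 2.72 gave an interaction of 0.15. In all, 9 of the 24 addition ISGs (37.5%) were called higher with BRG1 in untreated cells, 4 (16.7%) lower and 11 neither, beside the 26.7% and 30.3% of all genes.

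**Figure D3:**
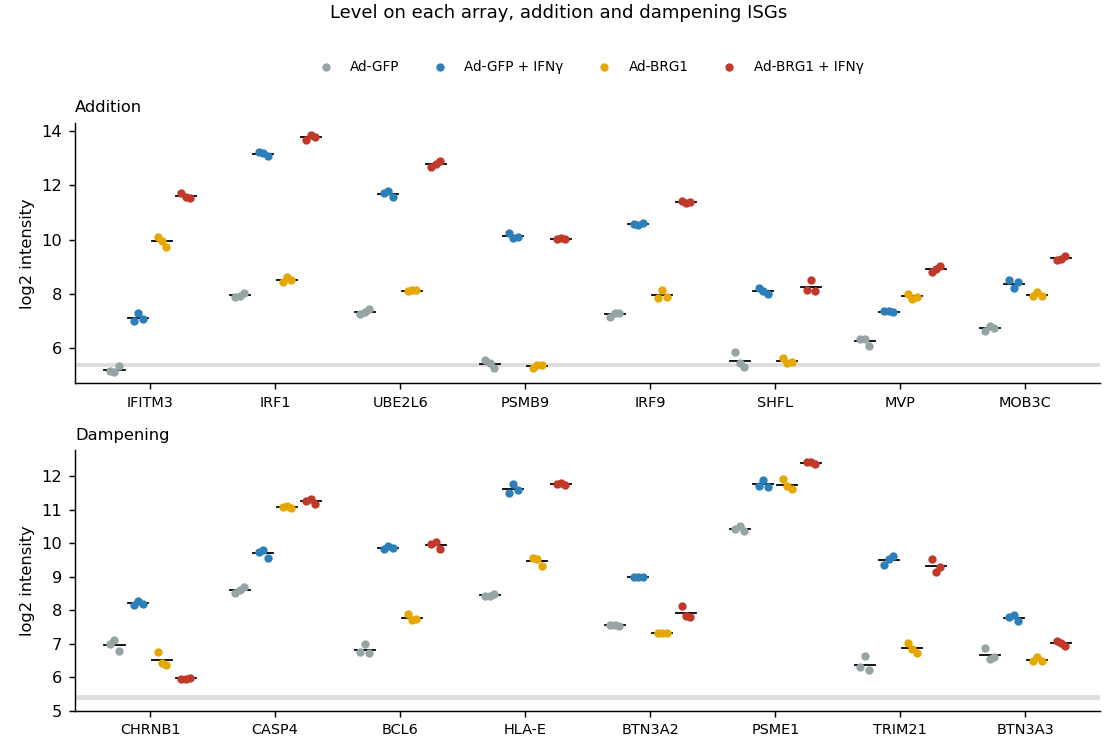
Normalised log2 intensity (y axis) of 8 addition ISGs (upper panel) and 8 dampening ISGs (lower panel), 3 points a group for the 3 arrays, with group means as black bars and the background floor as a grey band. For IRF1 the step from untreated to IFNγ is as tall with Ad-BRG1 as with Ad-GFP, whereas for CASP4 it is 1.11 with Ad-GFP and 0.17 with Ad-BRG1, and for CHRNB1 it turns from a 2.38-fold rise to a 1.47-fold fall.

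The dampening class divided by the level reached. In 5 of the 13, the level with IFNγ was still higher with BRG1 than without, in 4 it was lower, and in 4 it was not called. CASP4, an inflammatory caspase that senses lipopolysaccharide, read 8.52, 8.59 and 8.68 rising to 9.75, 9.81 and 9.56 in Ad-GFP cells, and 11.08, 11.10 and 11.05 against 11.25, 11.32 and 11.16 in Ad-BRG1 cells. BRG1 alone gave more CASP4 than IFNγ alone, with no overlap, and the interaction was -0.94 ± 0.11 (limma, adjusted p = 0.00022). A second CASP4 probe, near background and detected on 6 arrays, gave 0.22, which was not called (adjusted p = 0.14), and the mean of both probes gave -0.36 (adjusted p = 0.0188). PSME1, the alpha subunit of the PA28 proteasome activator, read 11.70, 11.89 and 11.67 with IFNγ alone and 11.91, 11.71 and 11.62 with BRG1 alone, which overlapped, and 12.41, 12.41 and 12.35 with both, an interaction of -0.68 ± 0.12. Its second probe, detected on 7 arrays, gave -0.37, not called.

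HLA-E, a non-classical MHC class I molecule that engages NKG2 receptors, reached nearly the same level with either virus. It rose from 8.42, 8.42 and 8.48 to 11.49, 11.75 and 11.60 in Ad-GFP cells and from 9.55, 9.52 and 9.33 to 11.76, 11.79 and 11.74 in Ad-BRG1 cells. The interaction was -0.88 ± 0.11 (limma, adjusted p = 0.00045), and the end levels differed by 0.15 (adjusted p = 0.12). BCL6, a transcriptional repressor, had the same interaction of -0.88, with end levels that differed by 0.09, and TRIM21, a cytosolic antibody receptor, one of -0.66 (adjusted p = 0.046) with a difference of -0.17. The TRIM21 call was lost in 8 of the 12 fits that left out 1 array, with adjusted p from 0.0839 to 0.111.

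Among the 8 ISGs with the largest dampening, CHRNB1, BTN3A2 and BTN3A3 ended lower with BRG1. CHRNB1, the beta subunit of the muscle acetylcholine receptor, rose from 6.98, 7.11 and 6.78 to 8.15, 8.28 and 8.18 in Ad-GFP cells and fell from 6.74, 6.44 and 6.36 to 5.96, 5.94 and 5.98 in Ad-BRG1 cells. It was the only ISG with opposite called responses, and its interaction was -1.80 ± 0.15 (limma, adjusted p = 7.0e-06). The butyrophilins BTN3A2 and BTN3A3, relatives of the BTN3A1 sensor of phosphoantigens for gamma delta T cells, had responses of 1.45 and 1.11 in Ad-GFP cells and of 0.60 and 0.50 in Ad-BRG1 cells. Their interactions were -0.85 ± 0.11 and -0.61 ± 0.13 (limma, adjusted p = 0.00046 and 0.016). A second BTN3A3 probe, detected on all 12 arrays, gave -0.19, which was not called (adjusted p = 0.486), and without background correction the brighter probe gave -0.33 with average normalization, still called. BTN3A1 itself was unresolved, at -0.49 (adjusted p = 0.060).

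Whether a gene counts as additive depends on the scale, so the gain in unlogged intensity with both was also set against the sum of the gains from BRG1 alone and IFNγ alone. This gives a value without a test. For 134 of the 135 synergy ISGs the joint gain exceeded that sum by more than 2 SE. This is not a separate check, because a larger fold from an equal or higher start gives that result by arithmetic. A lower start with BRG1 was called for only 22 of the 135. Among the 13 dampening ISGs the joint gain lay within 2 SE of the sum for 7, above it for 2 and below it for 4. For HLA-E the joint gain was 3128.5 units and the sum 3161.1, a difference of -32.6 ± 173 (SE). HLA-E was thus dampened on the log2 scale and not told apart from the sum on the linear one. No margin was set on the linear scale, so a difference within 2 SE does not show addition there. For BCL6 the gains were 874 and 923, and for PSME1 4000.8 and 4158.1. CHRNB1 and BTN3A2 stayed below the sum, by -200.2 ± 13.9 and -240.2 ± 17.4. Of the 24 addition ISGs, 10 exceeded the linear sum, 3 fell short of it and 11 lay within 2 SE. IRF1 was among those that exceeded it, with a joint gain of 13660 against 9039.5, and PSMB9 among those within it, at 1007.1 against 1084. For IRF1 the excess follows from like folds on a higher start with BRG1.

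Neighbouring ISGs did not always share a class. The 197 ISGs formed 14 runs of adjacent protein-coding genes holding 33 ISGs. Of these runs, 4 held more than 1 of the classes synergy, addition and dampening, and 4 others held 1 class beside an unresolved gene. In the MHC region of chromosome 6, HLA-DOB, TAP2, PSMB8, TAP1 and PSMB9 follow each other and were classed as synergy, addition, synergy, synergy and addition. PSMB8 and PSMB9 encode the immunoproteasome subunits that cut peptides for MHC class I, and TAP1 and TAP2 form the transporter that carries those peptides into the endoplasmic reticulum.

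PSMB8 was below background without IFNγ. It read 6.16, 6.23 and 5.76 with IFNγ in Ad-GFP cells and 9.03, 9.05 and 8.78 in Ad-BRG1 cells, an interaction of 2.61 ± 0.19 (limma, adjusted p = 2.8e-06), and its other 2 detected probes gave 1.76 and 2.18. PSMB9 read 10.24, 10.07 and 10.11 and then 10.01, 10.07 and 10.03, from 5.27 to 5.56 without IFNγ. Untreated PSMB9 was at the background, detected on 2 of 3 arrays with Ad-GFP and on 1 of 3 with Ad-BRG1, so its responses of 26.1-fold and 25.6-fold and its interaction of -0.03 (interval -0.27 to 0.22) rest in part on the background level. The levels with IFNγ do not. A second probe of PSMB9, near background, gave -0.59 (adjusted p = 0.0074). TAP1 had a high level in every group and an interaction of 0.43 ± 0.10 (adjusted p = 0.027), a call lost in 6 of the 12 fits that left out 1 array (adjusted p 0.0541 to 0.0659). TAP2 had an interaction of 0.22 that was not called (interval 0.04 to 0.40). BRG1 raised the basal level of TAP1 by 0.65 and lowered that of TAP2 by a difference of -0.68. HLA-DOB, a modulator of MHC class II loading, rose from 5.99, 5.59 and 5.55 to 6.59, 6.64 and 6.57 with IFNγ in Ad-GFP cells. In Ad-BRG1 cells it rose from 5.25, 5.30 and 5.42 to 7.03 ± 0.04 (SD, n = 3), an interaction of 0.82 ± 0.14. That lower start lay near the background, so this interaction too rests in part on the background level. It was 0.37 at lowest over the alternatives.

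IFITM2, IFITM1 and IFITM3, adjacent on chromosome 11, were unresolved, in synergy and additive. BRG1 alone raised IFITM2 from 5.72, 5.67 and 5.98 to 10.01, 9.98 and 10.04, with no overlap, and raised IFITM1 only by 0.64, to 6.65, 6.59 and 6.27 from 6.00, 6.00 and 5.58. All 3 genes ended at 10.96 to 11.76 on the arrays with both. The interaction of IFITM2, 0.43, missed the threshold (limma, adjusted p = 0.0502), and without background correction it was called at 1.08 with average and 1.05 with quantile normalization.

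**Figure D4:**
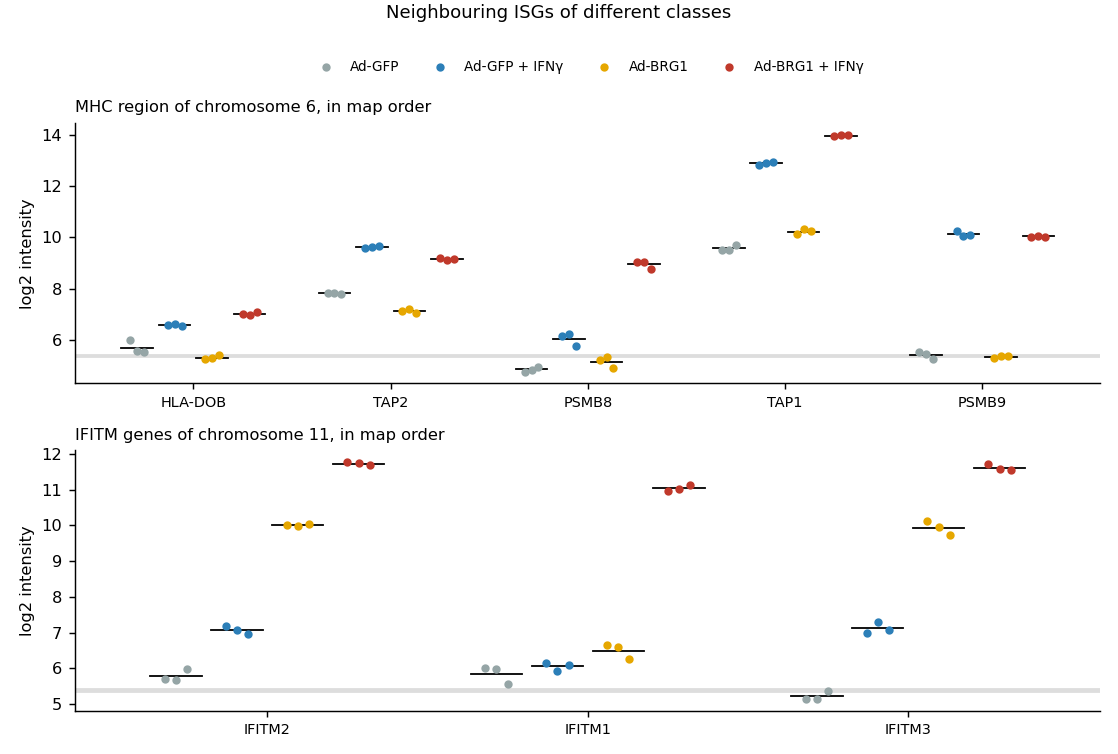
Normalised log2 intensity (y axis) of adjacent ISGs in map order (x axis), 3 points a group for the 3 arrays, with group means as black bars and the background floor as a grey band. In the upper panel PSMB9 reached about 10 with IFNγ with either virus, while PSMB8 reached 8.96 with Ad-BRG1 and 6.05 with Ad-GFP; in the lower panel IFITM1 rose mainly with both and IFITM2 and IFITM3 rose with BRG1 alone.

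By role, the interaction was uneven within pathways. Of 7 tested receptor, JAK and STAT genes, only JAK2, the kinase bound to the second receptor chain, was called, at 1.53 ± 0.19, and the receptor chains IFNGR1 and IFNGR2 had interactions of 0.14 and 0.02. JAK2 read 5.24, 4.97 and 5.35 in untreated Ad-BRG1 cells, near the lowest detected signal (5.35 to 5.44). Its interaction thus rests in part on the background level. It was as low as 0.69 over the alternatives that tested it, and called in each. Among 15 tested IRF and other transcription regulators, 8 were called positive and 1 negative, and 2 of the 15 passed the filter only through IFNγ-treated Ad-BRG1 cells. The largest positive was BATF2, a basic leucine zipper factor, at 1.82, followed by IRF8 at 1.16, and the negative was BCL6. Of 8 tested signalling brakes, 1 was called positive and 1 negative. These were SOCS1, the inhibitor of JAK kinases, at 2.40 ± 0.18 and SOCS2 at -0.55, where both responses were falls. The SOCS2 call was lost without background correction, with the mean of probes and in a fit that left out 3 arrays.

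Antiviral effectors and sensors were called positive for 20 and negative for 0 of the 32 tested of 40 listed, with a median of 0.94 against -0.03 over all genes; 8 of the 32 passed the filter only through IFNγ-treated Ad-BRG1 cells. At an unadjusted p under 0.05, 22 were positive and 4 negative, and the robust fit with trend called 21 and 1. Chemokines and cytokines were positive for 8 of 10, including the T cell attractant CXCL10 at 3.10, and 13 of 14 metabolic and other effectors were positive. Of these, 5 of the 10 and 5 of the 14 passed the filter only through IFNγ-treated Ad-BRG1 cells, where they had to be high, CXCL10 among them; among the others, 3 of 5 and 8 of 9 were positive, and 12 of 24 antiviral genes. Antigen presentation was more mixed. In the immunoproteasome and PA28, PSMB8 and PSMB10 were positive, PSME1 and PSME2 negative and PSMB9 not called; the PSME2 call, at -0.47, was lost without untreated Ad-GFP replicate 3 or IFNγ-treated Ad-GFP replicate 2 (limma, adjusted p 0.053 and 0.0538). Of 14 MHC class I and peptide loading genes, HLA-B at 1.16 and TAP1 were positive, HLA-E was negative, and B2M and TAPBP had interactions of 0.04 and -0.05. HLA genes are close paralogs, and their probes may read each other. Of 8 MHC class II genes, IFI30 and HLA-DOB were positive and the transcription factor RFX5 negative, at -0.41, a call lost in 9 of the 12 fits that left out 1 array (adjusted p 0.0605 to 0.0953). PARP and TRIM genes were positive for 6 of 11, led by TRIM22 at 2.54, and negative for 3; 2 of the 11, TRIM22 included, passed the filter only in that way. Butyrophilins and checkpoint ligands were positive for 3 of 9, led by CD274, the PD-1 ligand, at 2.52, and negative for 2. Of these 9, 1 passed the filter only through IFNγ-treated Ad-BRG1 cells, and among the other 8, 2 were positive.

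**Figure D5:**
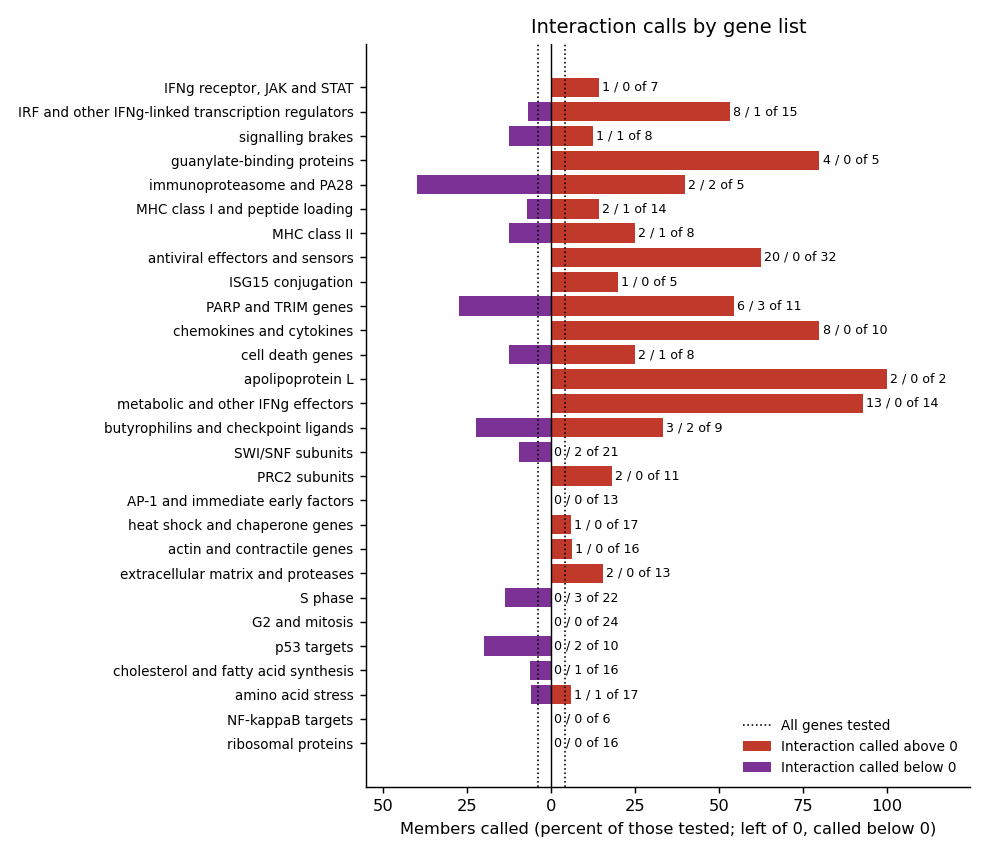
Percent of the tested members of each gene list (y axis) with an interaction called above 0 (bars to the right) or below 0 (bars to the left), with counts printed as positive / negative of tested; dotted lines mark all genes tested, 4.32% and 3.83%. Antiviral effectors reach 20 of 32 above 0 and 0 below, the immunoproteasome and PA28 list has 2 on each side, and mitotic and ribosomal genes have 0 called.

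Genes that IFNγ lowered were few. A fall of at least 2-fold with either virus was called for 8 genes. In 6 of them the interaction was called below 0, a more negative response with BRG1, whether or not the level fell in Ad-GFP cells. LFNG, a glycosyltransferase that modifies Notch, read 6.26, 6.61 and 6.59 untreated and 6.53, 6.44 and 6.48 with IFNγ in Ad-GFP cells, and 7.93, 8.13 and 8.22 falling to 6.93, 6.93 and 6.66 in Ad-BRG1 cells, an interaction of -1.26 ± 0.15 (limma, adjusted p = 0.00034). MEI1, a meiotic gene, fell from 7.10, 6.95 and 6.89 to 5.83, 5.97 and 5.78 in Ad-BRG1 cells, with Ad-GFP levels of 6.83 to 7.19 that overlapped with and without IFNγ. SOCS2, an inhibitor of growth hormone signalling, fell from 9.72, 9.89 and 9.77 to 7.87, 7.77 and 7.74 in Ad-GFP cells and from 8.95, 9.02 and 8.99 to 6.44, 6.54 and 6.31 in Ad-BRG1 cells. The interaction of SOCS2 was -0.55 ± 0.11 (adjusted p = 0.0094), and its second probe gave 0.22, which was not called.

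Outside the ISGs, 311 genes had a called positive interaction, and a further 377 that were neither ISGs nor lowered had a negative one. In 259 and 310 of them the IFNγ response was called only in Ad-BRG1 cells. The 5 largest positive were NEDD4 at 1.46, KIF14 at 1.40, SMARCAD1 at 1.38, NIPBL at 1.38 and GULP1 at 1.34, with SEs of 0.31 to 0.39, against a median SE of 0.14 in the synergy class. NEDD4, a ubiquitin ligase, read 9.29, 9.93 and 10.45 in IFNγ-treated Ad-BRG1 cells and 8.86, 8.49 and 9.46 in untreated ones. These replicates were far apart, and the groups overlapped. A second NEDD4 probe gave 0.08 and a second NIPBL probe 0.31, neither called. Leaving out 1 array ended the call in 10 of 12 fits for NEDD4, KIF14 and NIPBL, in 8 for GULP1 and in 2 for SMARCAD1, with adjusted p up to 0.116.

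The same spread ran through many genes. The leading axis of variation within groups held 32.7% of the within-group variance, with replicate 1 and replicate 3 of IFNγ-treated Ad-BRG1 cells at -0.50 and 0.51 and replicate 3 of untreated Ad-BRG1 cells at 0.48. Across the 10136 genes outside the ISGs the interaction correlated with this axis (r = 0.63 in size). Across the 197 ISGs r was 0.073, and the genes share the same 12 arrays. This low r does not clear single ISGs of the spread. In the synergy class, CEP135 read 8.07, 8.47 and 9.36 with both and had an interaction of 1.49 ± 0.36 (limma, adjusted p = 0.029). CD2AP, also in that class, read 6.67, 6.91 and 7.34 with both, an interaction of 1.47 ± 0.25. The number of such genes in the class was not counted. The part of this axis in the calls outside the ISGs was not tested, but leaving out the array of IFNγ-treated Ad-BRG1 replicate 1 gave 578 genes outside the ISGs called positive and 772 negative, and leaving out untreated Ad-GFP replicate 3 gave 97 and 126. The synergy class held 188 and 116 ISGs under these omissions, 133 and 115 of them among the 135.

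Among the largest negative interactions outside the ISGs, SIGIRR, LSM6 and RBM43 had responses that differed in sign. Of the 377 negative genes that were neither ISGs nor lowered, 9 rose in Ad-GFP cells and fell in Ad-BRG1 cells with both responses called. SIGIRR, an inhibitor of interleukin 1 and Toll-like receptor signalling, rose from 5.70, 5.80 and 5.83 to 6.19, 6.34 and 6.18 in Ad-GFP cells and fell from 6.26, 6.15 and 6.30 to 5.78, 5.46 and 5.61 in Ad-BRG1 cells. Both responses were called, and the interaction was -1.07 ± 0.12 (limma, adjusted p = 0.00018). LSM6, a subunit of the LSm ring that binds RNA tails, rose by 0.77 in Ad-GFP cells and had a response of -0.27 in Ad-BRG1 cells, an interaction of -1.04 ± 0.22. RBM43, an RNA-binding protein, had responses of 0.74 and -0.38 and an interaction of -1.12 ± 0.22. It read 5.52, 5.43 and 5.94 with both, so RBM43 and SIGIRR ended near the lowest detected signal (5.35 to 5.44). Over the alternatives the interaction shrank to -0.33 for SIGIRR, -0.47 for LSM6 and -0.40 for RBM43. The calls of LSM6 and RBM43 were lost only at the adjusted p limit of 0.01. Opposite called responses were found for 13 genes in all, of which 3 fell in Ad-GFP cells and rose in Ad-BRG1 cells.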

How the data were processed

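The deposited intensity of each probe, read with BeadStudio, is linear and neither background-subtracted nor normalized; the authors' detection p-value stands beside it. The authors' second set, scaled by average normalization, served as an alternative. Intensities were background-corrected, quantile-normalized and put on the log2 scale here with neqc (limma 3.58.1, R 4.3.3, offset 16), since the deposited values are not on a log2 scale. Probes with a detection p under 0.05 on all 3 arrays of a group were kept, and the brightest probe stood for its gene; probe names came from the array annotation, where 27578 of 48803 probes had 1 symbol. The 12 arrays were fitted together with a mean for each group (lmFit, eBayes, two-sided, Benjamini-Hochberg over 10333 genes, 8 residual degrees of freedom). The fit was also run on simulated data with independent noise for each gene and array. Such data lack the axis of variation shared by many genes, so they do not show how the fit behaves with it. Array dates and slides are not given in the sources used here.

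Members, classes and gene lists were chosen with earlier results of these data known. Named genes were the 12 largest synergy and 8 largest dampening ISGs, ranked by the smaller in size of the interaction as fitted and with undetected groups at the floor, the 8 addition ISGs with the largest joint effect, 5 genes in each direction outside the ISGs, the extremes of each list, and genes next to each other on the map. "At least" folds compare the bright group's mean with the dim group's lowest detectable signal. Alternatives covered normalization, filter, probe choice, replicate block, array weights, thresholds and each array left out. The number of arrays limits the precision. Promoters came from RefSeq (GRCh38.p14). Figures used Python 3.11.15 and matplotlib 3.10.9.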

Additional observations from a re-analysis of the deposited data

Results flagged for a closer look

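The genes that follow were picked by the size of their interactions among those called in limma, so a called difference in each follows from the choice. Leaving out 1 array ended the call in 10 of 12 fits for NEDD4, KIF14 and NIPBL. For GULP1 and TRIM21 it did so in 8, and for SMARCAD1 in 2. In the synergy class the interaction was 5.70 for IFIT3, 5.31 for IL18BP, 5.39 for GBP1, 5.21 for UBD, 4.99 for PLAAT4 and 4.33 for IFITM1. It was 4.41 for GBP4, 4.72 for APOL3, 3.95 for GBP2, 4.49 for IDO1, 3.85 for GBP5 and 3.39 for IFIT2. In the dampening class it was -1.80 for CHRNB1, -0.94 for CASP4, -0.88 for BCL6, -0.88 for HLA-E, -0.85 for BTN3A2, -0.68 for PSME1, -0.66 for TRIM21 and -0.61 for BTN3A3. Outside the ISGs it was 1.46 for NEDD4, 1.40 for KIF14, 1.38 for SMARCAD1, 1.38 for NIPBL and 1.34 for GULP1, and -1.26 for LFNG, -1.19 for MEI1, -1.12 for RBM43, -1.07 for SIGIRR and -1.04 for LSM6. Groups of 3 arrays are too small for a test of single outlying arrays.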

How the results depend on the processing

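Without background correction, average normalization gave 811 positive genes and quantile normalization 745 positive and 715 negative; the ISGs then fell to 100 and 98, with 77 and 75 in synergy (70 and 68 of them among the 135), 12 and 12 in addition and 0 and 0 unresolved. There IFITM3 changed sign and was called, at 0.77 and 0.73, and SOCS2 changed sign with average normalization, at 0.056, uncalled. Centring on the median gave 1730 negative genes, 15 ISGs in addition and 14 unresolved; relative to its shift of -0.17, a choice made after seeing the data, 226 genes were negative. Keeping genes detected on all arrays gave 63 synergy ISGs. The fit with replicate number as a block gave 727 positive and 611 negative genes and 15 unresolved ISGs and kept all 135 synergy and 13 dampening ISGs; the numbers were not taken to pair the arrays, since same-number correlations ran from -0.193 to 0.439, with 9 of 18 over 0.1. Array weights gave 857 positive, 875 negative and 10 unresolved, and the robust fit with trend 653 negative. An adjusted p limit of 0.01 gave 163 positive, 66 negative, 7 dampening and 52 unresolved. With an ISG fold of 1.5 the classes held 268 synergy, 66 addition, 22 dampening and 154 unresolved, and with no minimum fold 406, 578, 54 and 417. An addition margin of 2-fold left 13 unresolved, and a narrower planned one gave 3 addition and 46 unresolved. Leaving out 1 array gave 213 (without untreated Ad-GFP replicate 3) to 836 (without untreated Ad-BRG1 replicate 3) positive genes, 138 (without untreated Ad-GFP replicate 3) to 784 (without IFNγ-treated Ad-BRG1 replicate 1) negative genes, 115 to 194 synergy, 19 to 21 addition, 9 to 13 dampening and 20 to 57 unresolved ISGs. Without the 3 arrays at the ends of the leading axis, also chosen after seeing the data, 670 genes were positive and 14 ISGs additive. Of the synergy ISGs 0 became dampening, and of the dampening ISGs 0 became synergy, in any of these settings. A slide block was not run, because neither labels nor headers name a slide. Signal limits the genes below background without both BRG1 and IFNγ, whose interaction is set in part by the background level.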

Other observations

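Calls in gene groups outside the IFNγ pathway are set beside 4.32% positive and 3.83% negative over all genes. Of 21 SWI/SNF subunits tested, 0 were positive and 2 (9.52%) negative: SMARCB1 at -0.48, with IFNγ-treated levels of 10.10, 10.08 and 10.04 in Ad-GFP cells and 9.47, 9.45 and 9.27 in Ad-BRG1 cells, and SS18 at -0.48. The second SMARCB1 probe gave -0.20 (limma, adjusted p = 0.365), and the call was lost with the mean of both (adjusted p = 0.0661); the 3 other SS18 probes gave -0.58, -0.29 and 0.50, none called. Among 11 PRC2 subunits, AEBP2 at 0.74 and MTF2 at 0.51 were positive (18.2%). Of 22 genes of S phase, 3 (13.6%) were negative (PCNA at -0.45, TYMS at -0.35 and CCNE1 at -0.42), and the other probes of PCNA, at 0.034 and -0.0032, and of CCNE1, at -0.19, were not called. Of 24 genes of G2 and mitosis 0 were called. CENPF and CENPE had interactions of 1.11 and 1.05 (limma, adjusted p = 0.062 and 0.0718), which were called in 10 and 8 of 25 alternatives, among them the fit with replicate number as a block (adjusted p = 0.0251 and 0.0283) and that without IFNγ-treated Ad-BRG1 replicate 1 (0.0206 and 0.0369). The calls of AEBP2, MTF2, PCNA and TYMS were each lost in 9 of the 12 fits that left out 1 array, that of SS18 in 8 and that of CCNE1 in 7, with adjusted p of 0.0507 to 0.117 in limma. Ribosomal proteins (16), NF-kappaB targets (6) and immediate early factors (13) had 0 calls in limma. At an unadjusted p under 0.05, limma gave 9 positive and 2 negative genes of G2 and mitosis, 0 and 1 ribosomal proteins, 1 and 2 NF-kappaB targets, 4 and 1 immediate early factors and 0 and 4 SWI/SNF subunits. The robust fit with trend called 1, 1, 1, 2 and 3 genes of these lists. Type I and III interferon genes (9 listed) were above background in 0 groups.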
